A study of Mus musculus with 401 samples.

Results

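The cytoplasmic ribosomal protein genes encode the proteins of the large (Rpl) and small (Rps) subunit of the cytosolic ribosome, the particle that translates nuclear mRNAs. Members were the protein-coding genes of both count tables whose symbol starts with Rpl or Rps and a digit, together with Rplp0, Rplp1, Rplp2 and Rpsa, leaving out the S6 kinases (Rps6k), Rps19bp1 and names ending in -ps. The rule gave 85 genes of the 39808 in both tables, 52 of the large and 33 of the small subunit. Of these, 8 are paralogs of another member (Rpl3l, Rpl7l1, Rpl10l, Rpl22l1, Rpl36al, Rpl39l, Rps27l and Rps27rt). Rps4l is annotated as a transcribed processed pseudogene and is not a member. Fau and Rack1, which also give ribosome components but carry other names, are described beside the members.

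The study sequenced total RNA of single mouse oocytes and, separately, of the cumulus cells around each oocyte, to follow how both change with maternal age, with calorie restriction (CR) and with hyperovulation. Cumulus-oocyte complexes were taken from fully grown follicles of B6D2F1 females, the cross of C57BL/6 and DBA/2, and the oocytes were at the germinal vesicle stage. Libraries were made by RamDA-seq, a full-length method for very small amounts of RNA. A cumulus library is a bulk pool of the cumulus cells of 1 complex.

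The first set held young mice (2 months), middle mice (9 months), old mice (14 months) and CR mice (9 months, fed a stepwise restricted diet). The second set held mice of 2, 4, 9 and 14 months (2mo, 4mo, 9mo and 14mo) and a further group of 2 months that was not hyperovulated (2moNoH). All other groups of both sets received a hormone treatment, equine chorionic gonadotropin or a mixture that holds inhibin antiserum, before collection. In all, 399 libraries of 41 mouse labels were analysed. The first set had 2 young, 4 middle, 2 old and 3 CR labels, and the second set 5 for 2mo, 8 for 4mo, 4 for 9mo, 5 for 14mo and 8 for 2moNoH. The label Old1_2 carries the numbers of more than 1 old mouse and counted as a single unit. Titles of second-set libraries start with B1 or B2 and a position. What this prefix stands for is not given in the sources used here. Each mouse label carries 1 prefix and each group of the second set holds both, so values of that set are also given within B1 and within B2.

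Ribosomal proteins are made in near-equal amounts and assemble with ribosomal RNA in the nucleolus. Many of their mRNAs begin with a run of pyrimidines, the terminal oligopyrimidine (TOP) element, through which mTOR signalling and the protein Larp1 set their translation. The growing oocyte makes and stores ribosomes and maternal mRNAs, and its transcription stops when it is fully grown, whereas cumulus cells, which are granulosa cells coupled to the oocyte, go on transcribing.

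Depth differed between groups of libraries. Median total counts of oocyte libraries were 2209914 in young, 2332126 in middle, 2293313 in old and 3578882 in CR mice. In the second set they were 2118731 at 2mo, 2047067 at 4mo, 2117775 at 9mo, 2270752 at 14mo and 1986202 in 2moNoH. Cumulus libraries had medians of 1201007, 1091806, 1288956 and 2019007 in young, middle, old and CR mice, and of 854936, 854688, 856765, 883093 and 863415 in 2mo, 4mo, 9mo, 14mo and 2moNoH. The lowest total was 559305 counts in an oocyte library of Young2 and 510029 in a cumulus library of the 2mo group. CR libraries thus had the highest medians of their cell type. The RPKM of CR libraries also matched their counts less often than elsewhere in that set (within 1% for 11.68% of oocyte values), so diet and this difference of processing cannot be told apart. The median ratio of a count to the count implied by its RPKM was 1.003 in CR oocytes and 1.002 in CR cumulus cells.

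The cell type labels were checked against marker genes. In the 2mo group all 12 oocyte markers tested, such as Zp3 and Gdf9, were higher in oocytes and 9 of 10 cumulus markers were higher in cumulus cells. Col4a1 ran the other way, at 9.52 CPM (a gene's count scaled to the total of its library) in oocytes and 2.90 in cumulus cells. Zp2, Bmp15, Oosp1, Mos, Dppa3 and Figla had no count in 2mo cumulus libraries, and Hba-a1, Hbb-bs and Ptprc none in 2mo oocytes. The vessel marker Pecam1 stood at 75.3 CPM in 2mo oocytes. Summed cumulus markers in oocytes came to medians of 1.68% to 2.11% of the cumulus level in groups of the second set. In the first set these medians were 2.16% in young, 2.82% in middle, 5.37% in old and 2.72% in CR oocytes, with a highest library of 29.4% among old oocytes. In 2mo oocytes Nr5a2 was the largest part of the sum, at 53.9 to 63.5 CPM against 400 to 686 in cumulus cells. Inha stood at 3.54 to 15.1 against 2258 to 3637 CPM. The sum also holds Col4a1, so it need not measure RNA of cumulus cells alone. The oocyte library of 1 complex of Middle3 correlated more with the mean of cumulus libraries (r = 0.938) than with that of oocyte libraries (r = 0.755), and both libraries of this complex were left out, which leaves Middle3 with 1 oocyte library.

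Members took a small part of all counts, and a larger part in cumulus cells than in oocytes. In 2mo oocytes their share ran from 0.300% over a median of 0.490% to 0.543% of a library (mean over mice 0.480% ± 0.0254, SD, n = 5). In 2mo cumulus cells it ran from 1.05% over 1.35% to 1.70% (1.37% ± 0.0469, n = 5). No 2mo oocyte library reached the lowest cumulus library. The large subunit gave 0.301% ± 0.0142 in 2mo oocytes and 0.802% ± 0.0245 in cumulus cells, and the small subunit 0.179% ± 0.0113 and 0.567% ± 0.0274.

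Across the second set the medians of the oocyte share were 0.489% at 4mo, 0.476% at 9mo, 0.443% at 14mo and 0.501% in 2moNoH, and the means over mice were 0.478% ± 0.0484 (n = 8), 0.481% ± 0.00870 (n = 4), 0.448% ± 0.0184 (n = 5) and 0.501% ± 0.0350 (n = 8). Cumulus medians were 1.38% at 4mo, 1.26% at 9mo, 1.19% at 14mo and 1.48% in 2moNoH. Libraries of these groups overlapped in both cell types. By mouse, the 14mo oocyte share lay below that of 2mo within each prefix, at 0.445% to 0.474% against 0.479% to 0.510% within B1 and 0.429% to 0.435% against 0.453% to 0.457% within B2. At 9mo it was 0.486% to 0.491% within B1 and 0.473% to 0.475% within B2, and at 4mo 0.478% to 0.536% and 0.399% to 0.505%. In 2moNoH it was 0.512% to 0.538% within B1, above 2mo, and 0.442% to 0.498% within B2, where it overlapped 2mo. In bulk cumulus samples fewer cells of a kind and less RNA per cell cannot be told apart, and a share is relative to all other RNA of the library.

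The first set varied more between mice. By mouse label, the oocyte share was 0.323% and 0.535% in Young1 and Young2, 0.382%, 0.473%, 0.585% and 0.423% in Middle1 to Middle4, 0.904% and 0.474% in Old1_2 and Old3, and 0.371%, 0.352% and 0.334% in CR1 to CR3. All CR labels lay below all middle labels, while young and old labels overlapped the middle ones. Single oocytes reached 1.98% in Old1_2 and 1.36% in Young2, and in these libraries mitochondrial transcripts held 6.75% and 5.31% of counts, against group medians of 0.988% and 0.562%. Their cumulus markers stood at 17.3% and 15.3% of the cumulus level, against group medians of 5.37% and 2.16%. Their part in the share was not tested. Cumulus shares by label were 1.58% and 1.59% in young, 1.40%, 1.38%, 1.41% and 1.52% in middle, 1.504% and 1.36% in old, and 1.41%, 1.34% and 1.53% in CR mice.

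**Figure D1:**
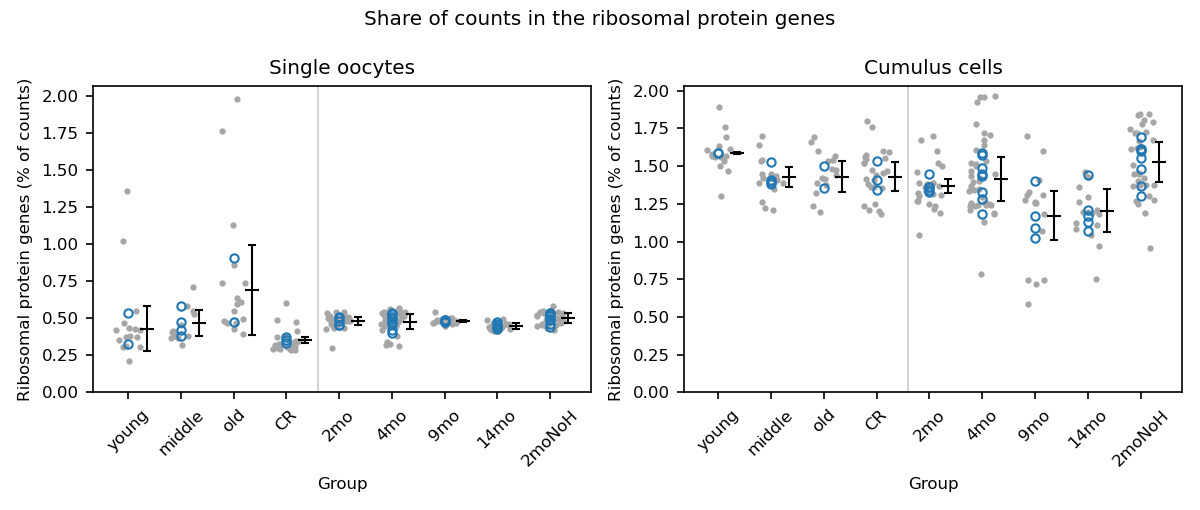
Share of all counts in the 85 ribosomal protein genes, in percent, for each group of oocytes and cumulus cells. Grey dots are libraries, blue circles mouse means, and black marks the mean ± SD over mice. Cumulus groups have medians of 1.19% to 1.57% and oocyte groups of 0.323% to 0.604%.

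Levels between members were compared as CPM per kilobase of gene length, as implied by the deposited counts and RPKM. This length was not compared with that of the mRNA, and the range and ranks of members rest on it. Levels spanned a wide range although the proteins are needed in near-equal amounts. Rplp1, which forms the acidic stalk of the large subunit with Rplp2 on the base protein Rplp0, was highest per length in all 18 groups. In 2mo oocytes it stood at 254 ± 17.6 CPM per kilobase, and among the next in order were Rpl41 with 192 ± 17.6, Rpl37 with 178 ± 17.3, Rpl32 with 143 ± 10.9 and Rplp0 with 123 ± 9.97 (SD, n = 5). Rpl41 and Rpl37 differed by less than their SDs. The median member stood at 23.2 CPM per kilobase. At the low end of the order were Rpl21 with 1.44, Rpl9 with 0.507 and Rpl3l with no count. Rpsa, a small subunit protein also known as the laminin receptor, ranked 48th, Rps6, the small subunit protein that S6 kinases phosphorylate, 42nd, and Rpl3, of the core of the large subunit, 69th.

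In 2mo cumulus cells the highest per length was Rplp1 at 525 ± 71.0 CPM per kilobase, with Rpl4 at 333 ± 37.8, Rpl41 at 313 ± 22.95 and Rplp0 at 269 ± 18.2 among the next. The median member stood at 67.8. Rpl9 ranked 48th and Rpl3 27th there. The ratio of the 90th to the 10th percentile of members was 14.7 to 17.03 over oocyte groups and 11.7 to 13.7 over cumulus groups. The 10 highest members held 35.5% to 36.9% of member counts in oocytes and 30.4% to 31.8% in cumulus cells.

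These levels rest on counts in which reads that map to several places were shared between genes, and ribosomal protein genes have many near-identical processed pseudogenes. The tables held 268 genes named after a member and ending in -ps, and these took 0.104% ± 0.00636 of counts in 2mo oocytes and 0.297% ± 0.00974 in 2mo cumulus cells. Of counts of a member and its -ps genes together, the -ps genes held 49.97% for Rpsa, 40.8% for Rps6, 41.4% for Rpl10, 33.2% for Rpl3 and 73.3% for Rpl36a in 2mo oocytes. In cumulus cells the same genes stood at 48.8%, 39.9%, 41.5%, 29.7% and 46.6%. Rps3, Rplp2 and the paralogs Rpl39l, Rpl10l, Rpl36al, Rpl22l1 and Rps27l had no -ps gene, and for Rplp0 the share was 2.54%. For 63 members over 90% of their nonzero values were not whole numbers, so their levels are uncertain by the reads they share.

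Oocytes against cumulus cells of the same 2mo mice showed most members at a lower share of RNA in the oocyte. By edgeR's quasi-likelihood test with the mouse as a block, 78 of 85 members passed an FDR of 5% (Benjamini-Hochberg over all genes), 71 lower and 7 higher in oocytes. Over all genes 34.7% were called lower and 33% higher. The median member differed by −1.06 on the log2 scale and the median of all genes by −0.06. Of the large subunit 41 were lower and 7 higher, with a median of −1.06, and of the small subunit 30 were lower and none was higher, with a median of −0.96. Scaled by total counts, the median of all genes moved by −0.50, with 77 members lower and 3 higher.

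The stalk genes were lower in oocytes in every 2mo mouse. Rplp0 stood at 216, 218, 213, 181 and 191 CPM in oocytes of the 5 mice and at 454, 476, 455, 395 and 453 CPM in their cumulus cells. Rplp1 had 123, 136, 137, 117 and 122 CPM against 273, 274, 298, 203 and 261. Rplp2 had 61.4, 55.3, 58.6, 45.3 and 57.0 CPM against 203, 173, 194, 144 and 159. For all 3 the cell types did not overlap. On the log2 scale Rplp0 differed by −0.64 (SE 0.11, FDR = 9.55e-07), Rplp1 by −0.54 (SE 0.12, FDR = 6.49e-05) and Rplp2 by −1.15 (SE 0.12, FDR = 1.15e-11) in the edgeR fit.

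Among the small subunit, Rps3, a protein at the mRNA entry of the ribosome, had a wide gap. It stood at 26.8, 31.8, 30.2, 28.4 and 30.7 CPM in oocytes and 297, 300, 309, 352 and 383 CPM in cumulus cells. The groups were far apart, with a log2 difference of −2.96 (SE 0.12, FDR = 2.97e-26). Rps3a1 differed as much, by −2.95 (SE 0.14). Rpsa had 63.6, 71.0, 61.7, 70.3 and 61.9 CPM against 410, 437, 415, 368 and 426. Its difference was −2.14 (SE 0.11, FDR = 1.40e-22). Rps6 stood at 37.2 ± 1.9 CPM in oocytes and 187 ± 30.04 in cumulus cells (log2 −1.81, SE 0.12, FDR = 1.80e-18). Rps7 (0.00), Rps13 (0.17) and Rps27l (−0.06) were the small subunit members that did not pass.

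Large subunit members covered the whole range of differences. Rpl9, a protein near the stalk, was close to absent from 2mo oocytes, with 1.41, 1.14, 1.20, 1.68 and 2.39 CPM against 185, 181, 178, 188 and 193 CPM in cumulus cells. Its log2 difference of −6.38 (SE 0.26, FDR = 2.72e-26) was the lowest of all members. Its -ps genes held 35.8% of the joint counts in oocytes and 25.1% in cumulus cells. Rpl3 had 24.7, 27.8, 22.6, 27.5 and 24.8 CPM against 356, 346, 353, 317 and 360 (log2 −3.27, SE 0.11, FDR = 2.09e-29). Rpl10, which joins the large subunit late in its assembly, stood at 88.0 ± 2.8 and 358 ± 21.8 CPM (log2 −1.52, SE 0.11, FDR = 4.21e-17), and Rpl22 at 50.4 ± 1.8 and 147 ± 10.7 CPM (log2 −1.03, SE 0.12, FDR = 1.99e-10).

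A few large subunit members went the other way. Rpl35, which sits at the exit of the peptide tunnel, had 102, 101, 92.3, 90.7 and 83.3 CPM in oocytes and 50.3, 51.7, 55.6, 70.5 and 82.4 CPM in cumulus cells. The lowest oocyte value exceeded the highest cumulus value by less than the spread of either, and the log2 difference was 1.10 (SE 0.16, FDR = 6.73e-08). Rpl37 (0.61), Rpl17 (0.54) and Rpl39 (0.51) also passed as higher in oocytes, but their CPM were close in both cell types. Rpl37 stood at 154 ± 14.97 in oocytes and 144 ± 23.01 in cumulus cells, Rpl17 at 42.0 ± 1.69 and 41.2 ± 6.09, and Rpl39 at 97.0 ± 9.50 and 97.3 ± 9.80. Scaled by total counts these 3 genes did not pass (log2 0.10, FDR = 0.488 for Rpl37, 0.03, FDR = 0.858 for Rpl17 and 0.00, FDR = 0.998 for Rpl39, whose sign turned), whereas Rpl35 did (0.59, FDR = 0.00121). The paralogs Rpl39l and Rpl10l were called higher under both scalings. They entered the test only through their counts in oocytes, so their calls add nothing to their levels. Rpl32 (−0.22), Rpl41 (−0.20), Rpl36 (−0.06) and the paralog Rpl3l, with 2 counts in cumulus libraries and none in oocytes, did not pass.

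The paralogs split by cell type. Rpl39l, a paralog of Rpl39 best known from the testis, was an oocyte transcript here, with 39.997, 37.6, 35.2, 33.2 and 34.5 CPM in oocytes of the 2mo mice and no count in any of their 24 cumulus libraries. Against a floor of 3 counts over the cumulus group (0.146 CPM) it was at least 244-fold higher in oocytes. Per length it reached 43.4 ± 3.3 CPM per kilobase, rank 26 of 85, beside 67.6 ± 6.6 for Rpl39, rank 11. Across all groups Rpl39l counts in cumulus cells came to 3 in 1 young library and 1 in 1 old library. Rpl10l, an intronless copy of Rpl10, had no count in any cumulus library and 2.24 ± 0.41 CPM in 2mo oocytes, at least 15.2-fold above the floor. Such floors and intervals cover counting error only.

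Of the other paralogs, Rpl36al was higher in oocytes, with 23.7, 20.05, 23.01, 22.1 and 19.03 CPM against 14.3, 16.8, 17.6, 20.1 and 18.5 in cumulus cells (log2 0.81, SE 0.16, FDR = 1.18e-05), and the values overlapped. It did not pass when scaled by total counts (log2 0.29, FDR = 0.0899). Rpl22l1, a paralog of Rpl22, stood at 4.34 ± 1.1 CPM in oocytes and 27.3 ± 9.7 in cumulus cells (log2 −2.15), Rpl7l1 at 10.6 ± 1.2 and 36.1 ± 4.3 (−1.27) and Rps27rt at 10.2 ± 0.69 and 36.7 ± 2.5 (−1.33), all past the test.

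**Figure D2:**
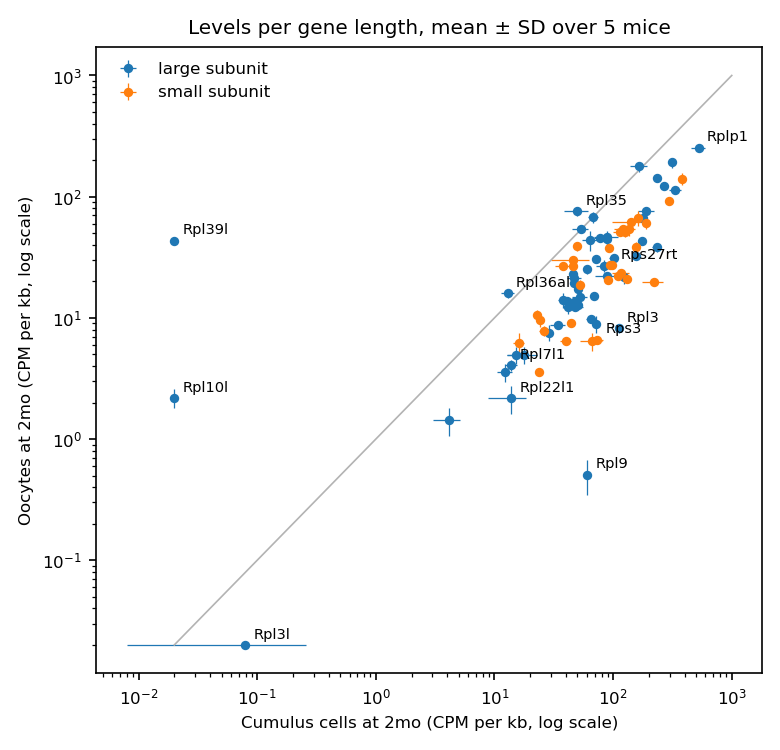
CPM per kilobase of each of the 85 members in 2mo oocytes and 2mo cumulus cells, on log axes, as mean ± SD over 5 mice. Genes without a count are drawn at the low end of the axis, and lower bar arms are shortened where they would pass 0. Rplp1 is the highest in both, at 254 and 525 CPM per kilobase, and Rpl9 (0.507 in oocytes) and Rpl39l (43.4 in oocytes) lie far from the other members.

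Genes named otherwise that share roles with the members were counted in the same 2mo comparison, in which 33% of all genes were called higher and 34.7% lower. Rack1, a protein of the small subunit head, stood at 121 CPM in oocytes and 555 in cumulus cells (log2 −1.70), and Fau at 93.6 and 145 (−0.10, FDR = 0.480, not called). Of 22 elongation factors and other TOP mRNAs, 5 were higher and 12 lower in oocytes, among them the poly(A)-binding protein Pabpc1 (−4.41) and Eef1d (1.33). Of 30 ribosome assembly factors 16 were higher, such as Utp4 (3.77), and 10 lower, such as the nucleolar methyltransferase Fbl (−1.90). RNA polymerase I genes were 4 higher and 4 lower of 9. Of 12 genes that control TOP mRNAs or Myc, 3 were higher, with Mtor at 0.93 and Tsc1 at 1.51, and 9 lower, with Larp1 at −3.19.

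In young mice of the first set the same comparison had 2 mouse labels. By edgeR 67 of 84 members passed, 65 lower and 2 higher in oocytes, while of all genes 23.5% were lower and 30.4% higher. The median member differed by −1.26 and the median gene by 0.00 on the log2 scale. The large subunit had 37 lower and 2 higher and the small subunit 28 lower. The 2 higher ones were Rpl39l and Rpl10l, which entered the test only through oocytes. Scaled by total counts, the median of all genes moved by −0.58, with 79 members lower and 2 higher. Without Young1 the count was 36, 34 of them lower, but this leaves 1 young label, which is then assumed to vary like the other groups. All other results of this paragraph are for both labels.

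Rpl9 stood at 7.47 and 7.04 CPM in oocytes of Young1 and Young2 and at 243 and 233 in their cumulus cells (log2 −4.41, SE 0.35, FDR = 3.51e-34). Its oocyte level was above that of the 2mo group, as was the share of cumulus markers in these oocytes (4.12% and 3.75%). Their part in the result was not tested. Rps23, a protein of the decoding centre, had 8.04 and 9.72 CPM against 131 and 130 (log2 −3.15, SE 0.35, FDR = 1.34e-18), and Rpl3 25.2 and 33.3 CPM against 400.0 and 385 (log2 −3.03, SE 0.32, FDR = 2.44e-20). Rplp0 was lower in oocytes (log2 −0.70, FDR = 0.0333), and Rplp1 did not pass (−0.44, FDR = 0.209). Rpl39l had 996 counts in oocytes and 3 in cumulus libraries, a CPM ratio of 177 with a counting interval of 60.3 to 859. Of the related lists 14 of 22 TOP mRNAs passed (2 higher, 12 lower), 19 of 30 assembly factors (12 and 7), 7 of 9 polymerase I genes (4 and 3) and 10 of 12 control genes (3 and 7). Over all genes 30.4% were called higher and 23.5% lower in this comparison.

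Calorie restriction was compared with the middle group, of the same age. In oocytes 8 of 84 members passed in edgeR, 6 lower and 2 higher in CR mice, against 7.67% of all genes (4.58% higher and 3.09% lower). The median member stood at −0.31 and the median gene at 0.01 on the log2 scale, with 68 members below 0 and 35 at an unadjusted p under 0.05. Scaled by total counts 7 were lower and 1 higher. The lower ones were a stalk gene, a small subunit gene and 4 other large subunit genes, and both higher ones were paralogs. The count depended on single mice and on the tool. It was 2 without CR1, 1 without CR2, 2 without CR3, 1 without Middle2 and 4 without Middle4, DESeq2 called 22 (2 higher, 20 lower), and limma on RPKM called 3. With the left-out complex of Middle3 put back it was 0 in edgeR, with 41 at that p, and the median member was −0.96. The 7.67% of all genes belongs to the main edgeR fit, and shares for these other settings are not given here.

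Rplp0 had 154, 172, 258 and 168 CPM in oocytes of Middle1 to Middle4 and 127, 101 and 97.7 CPM in CR1 to CR3, without overlap (log2 −0.71, SE 0.18, FDR = 0.0318). It did not pass without CR1, CR2, CR3, Middle2 or Middle3 (FDR = 0.0518 to 0.141). Rplp1 stood at 136, 128, 190 and 129 CPM against 97.3, 86.9 and 99.96, and Rplp2 at 45.4, 59.5, 84.7 and 53.5 against 38.5, 35.2 and 32.6. Neither passed, although no CR mouse reached the lowest middle mouse (Rplp1 −0.55, FDR = 0.0765 and Rplp2 −0.69, FDR = 0.122). Rpsa, with 58.7, 56.7, 57.0 and 68.0 CPM against 40.8, 48.5 and 43.3, did not pass either (−0.38, FDR = 0.152).

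Rps16 was the small subunit gene that fell. It had 38.6, 56.5, 81.3 and 50.9 CPM in middle and 27.5, 28.9 and 25.7 CPM in CR oocytes (log2 −0.95, SE 0.24, FDR = 0.0271). Among large subunit genes, Rpl13 had 58.2, 54.0, 52.3 and 55.5 CPM against 26.3, 27.2 and 25.7 (log2 −0.99, SE 0.20, FDR = 0.00944). For both genes the diets did not overlap, and the mice of either diet lay within a narrow band for Rpl13. Rpl37a fell from 11.7, 15.05, 18.3 and 10.9 CPM to 8.51, 6.73 and 5.21 (log2 −0.97, SE 0.24, FDR = 0.0261). Rpl27a (−0.81, FDR = 0.0276) and Rpl10a (−0.79, FDR = 0.0327) also fell. With single mice left out, Rpl27a passed without Middle3 and not without any other (FDR = 0.0551 to 0.129), and Rpl10a passed without Middle1 and not without any other (FDR = 0.0585 to 0.122). Rpl13 passed without each mouse in turn, whereas Rpl37a did not pass without CR2, CR3 or Middle2 (FDR = 0.0803 to 0.147) and Rps16 not without CR1, CR2, CR3 or Middle2 (FDR = 0.0695 to 0.111). Reads shared with -ps genes bear on Rpl10a, for which they held 31.3% in 2mo oocytes, on Rpl13, with 28.1%, and on Rps16, with 21.5%.

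The paralog Rps27l, a p53 target in other cells, had 12.9, 23.2, 31.3 and 19.1 CPM in middle and 39.1, 34.4 and 34.8 CPM in CR oocytes (log2 0.85, SE 0.24, FDR = 0.0422). Rpl22l1 had 4.06, 5.06, 4.93 and 3.95 CPM against 15.6, 10.1 and 8.87 (log2 1.40, SE 0.33, FDR = 0.0226). Neither gene overlapped between the diets. With single mice left out, Rps27l passed without Middle3 and not without any other (FDR = 0.0760 to 0.121), and it did not pass by total counts (FDR = 0.0897). Rpl22l1 did not pass without CR1, CR2, Middle1, Middle2 or Middle4 (FDR = 0.0501 to 0.0906). Rpl39l stood at 23.04, 34.9, 61.7 and 25.6 CPM against 17.9, 19.9 and 18.3 and did not pass (−0.83, FDR = 0.0949). Rps6 (−0.02), Rpl3 (−0.29), Rpl10 (−0.13) and Rpl22 (−0.29) were not called.

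**Figure D3:**
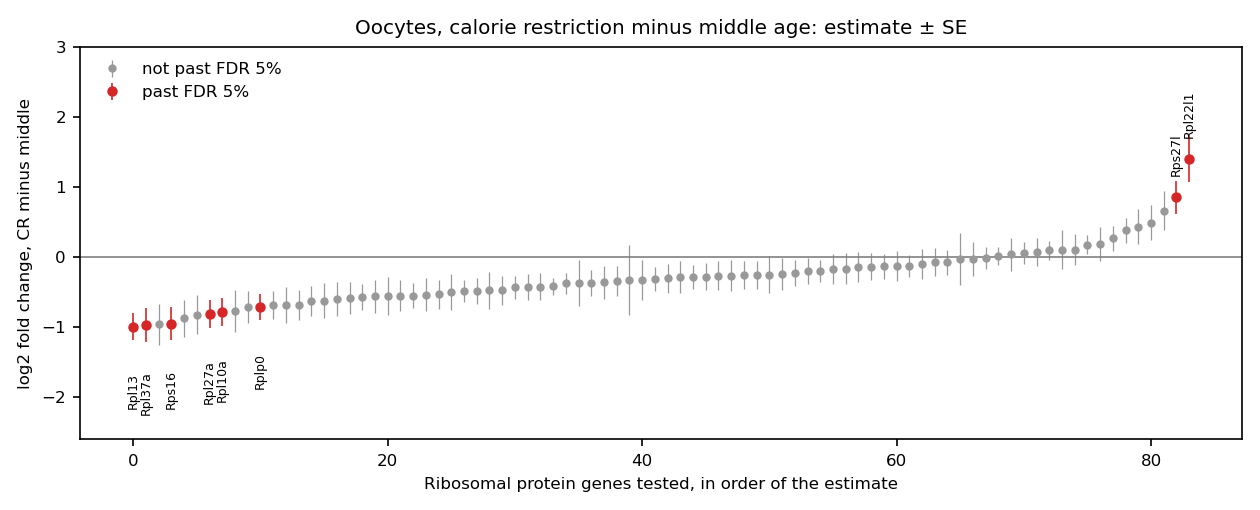
Log2 fold change of CR minus middle oocytes for each of the 84 members tested, in order of the estimate. Bars are ± SE, derived from edgeR's F statistic, and the 8 members past an FDR of 5% are in red and named. They run from Rpl13 (−0.99) to Rpl22l1 (1.40), and 68 members lie below 0.

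Related genes were counted in CR oocytes too, where 4.58% of all genes were called higher and 3.09% lower. Fau fell from 101 ± 30.3 to 53.2 ± 3.8 CPM (log2 −0.83, FDR = 0.0245) and Rack1 from 120.0 ± 13.2 to 71.7 ± 4.6 CPM (−0.67, FDR = 0.0158). Of the 22 TOP mRNAs 2 fell, Fau and Rack1, and 1 rose, the initiation factor Eif4b (0.60, FDR = 0.0147). Of 30 assembly factors 3 rose, the snoRNP proteins Dkc1 (0.77) and Nop58 (0.95) and the export adaptor Nmd3 (0.80), and 4 fell, Rrp9 (−0.79), Bysl (−0.70), Wdr12 (−0.58) and Nob1 (−0.73). In edgeR 0 of 9 polymerase I genes passed (3 at an unadjusted p under 0.05) and 0 of 12 control genes (0 at that p), and these lists were not run with another tool. The pseudogene Rps4l stood at 10.97 CPM in middle and 6.05 in CR oocytes (log2 −0.81, FDR = 0.0378). Of the cumulus markers 1 of 10 passed in these oocytes, Kitl at 1.28, and Inha was the most abundant, at 134 CPM in middle and 101 in CR oocytes. The summed cumulus markers were 6.81%, 3.34%, 1.73% and 7.58% of the cumulus level in Middle1 to Middle4 and 5.49%, 5.81% and 3.21% in CR1 to CR3, and mitochondrial transcripts held 0.736%, 0.854%, 0.849% and 0.721% of counts against 1.72%, 1.13% and 0.978%. Without the oocytes above 10% of cumulus markers, a choice made after seeing the data, 29 members passed (1 higher, 28 lower), and without those above 3% mitochondrial counts 20 passed (1 and 19). Shares of all genes called in these fits with oocytes left out are not given here.

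In cumulus cells of CR and middle mice edgeR called 0 of 82 members (0.0642% of all genes), with 3 at an unadjusted p under 0.05, and 0 were called by DESeq2 (2 at that p) and by limma (6). The median member stood at 0.05 and the median gene at 0.04. Rplp1 had 251, 231, 234 and 275 CPM in middle and 342, 294 and 305 CPM in CR mice and did not pass (log2 0.36, SE 0.11, FDR = 0.244). The test of whether CR acted differently on the cell types called 1 of 84 members in edgeR (1.9% of all genes), with 11 at an unadjusted p under 0.05. It was Rpl22l1, at 1.36 (SE 0.41, FDR = 0.0448), whose cumulus level was 33.5, 41.8, 28.3 and 44.6 CPM in middle and 44.6, 39.99 and 50.6 CPM in CR mice. The median member was −0.02 and the median gene 0.20, and by total counts the median of all genes moved by −0.28, the median member was −0.32 and the only call was Rpl13 (−1.12, FDR = 0.0451). Without the mouse as a block 0 passed (11 at that p), with the complex as a block over libraries 40 passed (3 higher, 37 lower), and without Middle3 the count was 3 (Rpl22l1, Rps27l and Rpl13). It was 0 without any other single mouse. The 1.9% of all genes belongs to the main fit, and shares for these other fits are not given here. Of the lists, 0 of 22 TOP mRNAs, 0 of 30 assembly factors and 0 of 9 polymerase I genes passed in edgeR (2, 5 and 0 at that p), and 1 of 12 control genes was lower, Myc at −1.95 (FDR = 0.0381).

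Age in oocytes of the first set gave no call. Between old and young oocytes edgeR called 0 of 84 members (0% of all genes), while 82 lay above 0 and 50 had an unadjusted p under 0.05. DESeq2 also called 0 (54 at that p) and limma 0 (29). The median member stood at 0.59 and the median gene at 0.05 on the log2 scale, with 0.54 for the large and 0.70 for the small subunit. By total counts the median of all genes moved by 0.14 and that of members was 0.76. Without a filter on low counts 20 members passed, and 67 with libraries as units, which takes oocytes of the same mouse as independent. The 0% of all genes belongs to the main fit, and shares for these other fits are not given here.

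Much of this difference lay in the label Old1_2. Rplp0 stood at 277 CPM in Old1_2 and 184 in Old3, against 121 and 199 in Young1 and Young2. Rplp2 had 132 and 52.8 CPM against 39.8 and 78.3, and Rpsa 107 and 62.3 against 51.6 and 68.0. Each time Old3 fell between the young labels and Old1_2 lay above both. Rpl12 had the lowest p, with 90.3 and 38.2 CPM against 22.9 and 40.4 (log2 0.94, SE 0.27, FDR = 0.507). Rpl22l1 stood at 16.7 and 4.31 CPM in the old labels and 3.14 and 6.53 in the young.

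Without Old1_2 the median member was 0.19, and without Young2 it was 0.96. Old1_2 also had the highest cumulus markers, 9.64% of the cumulus level against 3.75% in Old3, 4.12% in Young1 and 3.75% in Young2. It had the highest mitochondrial share too, 1.87% against 0.656%, 0.675% and 1.08%. Of the 10 cumulus markers 9 lay above 0 in old oocytes and 0 passed in edgeR (4 at an unadjusted p under 0.05). Inha was the most abundant, at 188 CPM in old and 106 in young oocytes, and each of the 10 had a count in both groups. Rpl9, which 2mo oocytes nearly lacked, had 31.01 CPM in Old1_2 and 5.75 in Old3. The part of these values in the result was not tested. With oocytes above 10% of cumulus markers left out, a choice made after seeing the data, the median was 0.43, and with those above 3% mitochondrial counts left out it was 0.48.

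Middle and young oocytes differed less. Of 84 members edgeR called 0 (0% of all genes), with 0 at an unadjusted p under 0.05, and DESeq2 and limma also called 0 with 0 at that p. The median member was 0.12 and the median gene 0.01, and with the left-out complex of Middle3 put back the median member was 0.71. It turned to −0.15 without Young1 and to −0.04 with libraries as units, and was 0.48 without Young2 and 0.01 without Middle3. Rplp0, at 154 to 258 CPM in the middle labels and 121 and 199 in the young, overlapped (log2 0.25). Both age comparisons of this set share the young mice. Of the TOP, assembly, polymerase I and control lists 0 genes passed in edgeR in either, with 4, 2, 0 and 3 at that p for old oocytes and 0 in each list for middle ones.

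In the second set, with 4 to 8 mice a group, no member was called with age in oocytes. At 4mo against 2mo edgeR called 0 of 84 members (0% of all genes), with 1 at an unadjusted p under 0.05, and DESeq2 (1) and limma (2) called 0. At 9mo it called 0 (0.0619% of all genes), with 1 at that p, as did DESeq2 (1) and limma (3). At 14mo it called 0 (0.217% of all genes), with 14 at that p, as did DESeq2 (14) and limma (9). These comparisons share the 2mo mice. Median differences of members were 0.00, 0.00 and −0.10 on the log2 scale, beside 0.01, −0.01 and 0.00 for all genes, and at 14mo 74 members lay below 0. The cumulus marker Inha stood at 16.8 to 34.2 CPM in 14mo and 3.54 to 15.1 in 2mo oocytes, without overlap. The other cumulus markers overlapped between these groups, and the part of Inha in the result was not tested. Within B1 and within B2, as log2 ratios of mean CPM, the median member was 0.03 and −0.03 at 4mo, −0.04 and 0.05 at 9mo, and −0.12 and −0.08 at 14mo. With the prefix as a term edgeR called 0 at each age, with 2, 4 and 20 members at an unadjusted p under 0.05.

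Rpl7 had the lowest p at 14mo, with 78.4, 78.3, 77.2, 67.2 and 71.3 CPM against 84.8, 82.0, 84.4, 86.5 and 93.8 at 2mo. These values did not overlap, and the difference of −0.22 (SE 0.07) did not pass (FDR = 0.184, and 0.142 with the prefix as a term). Rplp0 stood at 204 ± 16.5 CPM at 2mo, 205 ± 19.6 at 4mo, 202 ± 10.5 at 9mo and 191 ± 4.1 at 14mo. Within B1 it was 213 to 218 CPM at 2mo and 188 to 189.9 at 14mo, without overlap, and within B2 181.5 to 191 and 188.5 to 198, so the prefixes differed in direction. That difference was not tested. Rpl39l stood at 36.1 ± 2.7, 36.5 ± 4.2, 36.8 ± 2.8 and 36.2 ± 3.1 CPM, and these ages differed by less than 1 SD. Of the related lists 0 genes passed in edgeR at any of these ages. At an unadjusted p under 0.05 the TOP, assembly, polymerase I and control lists held 0, 1, 0 and 0 genes at 4mo, 1, 1, 1 and 1 at 9mo, and 2, 5, 1 and 0 at 14mo.

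**Figure D4:**
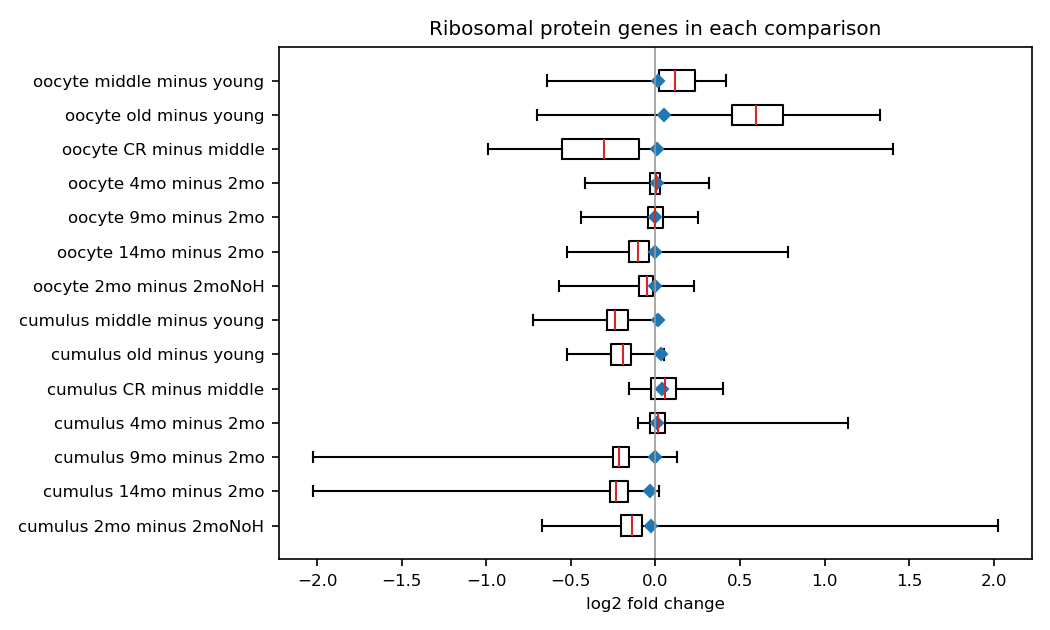
Log2 fold changes of the members in the comparisons within a cell type, by age, CR and hyperovulation. Boxes span the quartiles with whiskers to the extremes, red marks the median of the members and blue diamonds the median of all genes tested. Members lie mostly above 0 in old against young oocytes (median 0.59, no member called) and below 0 in CR against middle oocytes (median −0.31).

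In cumulus cells most members lay below 0 with age in the first set, and none passed. Between middle and young mice edgeR called 0 of 82 (0.00378% of all genes), with 26 at an unadjusted p under 0.05 and 81 below 0, and DESeq2 (21) and limma (9) called 0. Between old and young mice it called 0 (0.0227% of all genes), with 12 at that p and 81 below 0, as did DESeq2 (21) and limma (11). Median members stood at −0.24 and −0.19, and median genes at 0.02 and 0.03. Rpl22l1 had 64.2 and 55.8 CPM in young, 33.5, 41.8, 28.3 and 44.6 in middle, and 49.7 and 36.5 in old mice. No middle or old label reached the young ones, and neither difference passed (−0.72, SE 0.20, FDR = 0.876 for middle and −0.52, SE 0.23, FDR = 1 for old). Rplp0 stood at 416 and 441 CPM in young, 396, 392, 419 and 451 in middle, and 395 and 357 in old mice.

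In the second set cumulus members at 4mo centred on the 2mo level, with a median of 0.02 beside 0.01 for all genes. By edgeR 0 of 83 were called (0% of all genes), with 1 at an unadjusted p under 0.05, and DESeq2 (1) and limma (1) called 0. At 9mo edgeR called 0 (0.0771% of all genes), with 8 at that p and 81 below 0, as did DESeq2 (6) and limma (30). At 14mo it called 0 (0.0734% of all genes), with 17 at that p and 80 below 0, as did DESeq2 (11) and limma (12). Medians were −0.21 and −0.23 for members, beside 0.00 and −0.03 for all genes. With the prefix as a term edgeR called 0 at each age, with 1, 29 and 39 members at that p for 4mo, 9mo and 14mo.

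Both prefixes gave members below 0 at the later ages, to unequal extents. At 9mo the median log2 ratio was −0.07 within B1 and −0.38 within B2, and at 14mo −0.09 and −0.33. At 4mo it was 0.09 and −0.01. The share of counts in members was 1.34% to 1.36% in the 3 mice of 2mo with B1, beside 1.17% to 1.40% at 9mo and 1.17% to 1.44% at 14mo, so these ages overlapped. With B2 it was 1.33% to 1.45% at 2mo, 1.03% to 1.09% at 9mo and 1.07% to 1.13% at 14mo, without overlap with 2mo. Whether the prefixes differ in their change with age was not tested. Mitochondrial transcripts held 6.64% to 8.34% of counts at 2mo, 7.51% to 9.91% at 9mo and 7.91% to 9.78% at 14mo within B1, and 10.3% to 10.8%, 14.1% to 14.7% and 11.2% to 12.9% within B2. Their part in the result was not tested.

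Rpl7, the member with the lowest p at both ages, had 389.8, 429, 389.9, 416 and 456 CPM at 2mo, 359, 399, 295 and 298 at 9mo, and 337, 430.0, 318, 345 and 286 at 14mo. Over all mice the ages overlapped, with differences of −0.30 (SE 0.11, FDR = 0.499) and −0.32 (SE 0.11, FDR = 0.429). Within B1 Rpl7 was 389.8 to 429 CPM at 2mo, 359 to 399 at 9mo and 318 to 430 at 14mo. Within B2 it was 416 to 456, 295 to 298 and 286 to 345, without overlap with 2mo. Rplp0 stood at 447 ± 30.1, 441 ± 62.0, 364 ± 82.5 and 378 ± 93.2 CPM from 2mo to 14mo. Within B1 it was 454 to 476 CPM at 2mo, 400.2 to 461 at 9mo and 367 to 507 at 14mo, and within B2 395 to 453, 275.5 to 320.1 and 287 to 296, so mice with B2 lay below those with B1 at both later ages. With the prefix as a term the differences were −0.28 (SE 0.11, FDR = 0.390) at 9mo and −0.30 (SE 0.10, FDR = 0.327) at 14mo. For Rpl7 they were −0.30 (SE 0.10, FDR = 0.304) and −0.32 (SE 0.10, FDR = 0.257). All 22 TOP mRNAs lay below 0 at 9mo and at 14mo, and 0 passed in edgeR (0 and 4 at an unadjusted p under 0.05).

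Assembly factors, polymerase I genes and control genes also had 0 called by edgeR in all cumulus age comparisons. At that p they held 3, 2 and 0 for middle, 1, 1 and 0 for old, 1, 0 and 0 for 4mo, 1, 0 and 0 for 9mo and 2, 0 and 1 for 14mo, and the TOP list held 3, 0 and 0 for middle, old and 4mo. In cumulus cells of CR mice 0 of the 22 TOP mRNAs, 30 assembly factors, 9 polymerase I and 12 control genes passed in edgeR (0, 4, 0 and 0 at that p). The cumulus markers held 0 called of 10 in each of these comparisons, with 0 at that p for middle, 0 for old, 1 for 4mo, 1 for 9mo, 3 for 14mo and 2 for CR mice. The 3 theca and stroma markers lay above 0 at 4mo, 9mo and 14mo.

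Hyperovulation was compared at 2 months with mice left untreated. In oocytes edgeR called 0 of 84 members (0% of all genes), with 1 at an unadjusted p under 0.05, and DESeq2 (2) and limma (2) called 0. The median member stood at −0.05 and the median gene at 0.00. The median log2 ratio of members was −0.09 within B1 and −0.05 within B2, and with the prefix as a term 0 were called, with 6 at that p. Rplp0 ran from 157 over a median of 211 to 265 CPM in the 32 oocyte libraries of untreated mice. By mouse the untreated values of 187 to 235 CPM overlapped the treated ones of 181 to 218.

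In cumulus cells edgeR called 0 of 83 members (1.99% of all genes), with 8 at an unadjusted p under 0.05 and 79 below 0. DESeq2 called 1 lower, Rpl12 (log2 −0.37, FDR = 0.0305, 17 at that p), and limma 0 (12). Without 2moNoH6 edgeR called Rpl12 (−0.42, FDR = 0.0353). With the prefix as a term it called Rpl22l1 (14 at that p, and 4.11% of all genes called). Medians were −0.14 for members and −0.02 for all genes, and the median log2 ratio of members was −0.09 within B1 and −0.20 within B2. By mouse, the share of counts in members within B1 was 1.34% to 1.36% in treated and 1.30% to 1.61% in untreated mice. Within B2 it was 1.33% to 1.45% and 1.55% to 1.69%, without overlap. Rpl12 had the lowest p, with 215, 219.6, 224, 257 and 254 CPM in treated mice and 229 to 355 (mean 304 ± 49.5) in untreated ones (log2 −0.35, SE 0.12, FDR = 0.115, and −0.33, SE 0.11, FDR = 0.0694 with the prefix as a term). Rpl22l1 stood at 20.8, 20.1, 21.7, 31.4 and 42.6 CPM in treated mice and from 24.6 to 68.2 (mean 44.2 ± 18.3) in untreated ones (−0.67, FDR = 0.253, and −0.52, SE 0.12, FDR = 0.0129 with the prefix as a term). The groups overlapped for both genes over all mice, and not within a prefix. Within B1, Rpl22l1 was 20.1 to 21.7 CPM in treated and 24.6 to 31.7 in untreated mice, and Rpl12 215 to 224 and 229 to 311. Within B2, Rpl22l1 was 31.4 to 42.6 and 55.1 to 68.2 CPM, and Rpl12 254 to 257 and 329 to 355.

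Of 30 assembly factors 2 fell in the same cumulus cells, the nucleolar proteins Gnl3 from 77.0 to 43.6 CPM (log2 −0.79, FDR = 0.0258) and Ncl from 390.0 to 247 CPM (−0.62, FDR = 0.0135), and 29 of 30 lay below 0, of which the others did not pass. Over all genes 1.99% were called in either direction in these cells. The TOP, polymerase I and control lists had 0 called in edgeR (2, 1 and 3 at an unadjusted p under 0.05). Of 10 cumulus markers 3 passed as higher with treatment, Inhba (2.05), Cyp19a1 (1.73) and Fshr (0.92). The markers did not move as a set. Slc38a3 stood at 7.69 to 78.4 CPM in treated and 16.6 to 243 in untreated mice, and Amh at 22.4 to 226 and 125 to 443. The part of these markers in the result was not tested. In oocytes none of these lists had a call in edgeR, with 0 at that p in each. The test of whether treatment acted differently on the cell types called 0 of 85 members in edgeR (0.477% of all genes), with 2 at an unadjusted p under 0.05, and it was not run with DESeq2 or limma. Its median was 0.11 for members and 0.05 for all genes. With the complex as a block over libraries Rpl22l1 was called (0.75, FDR = 0.0145). The TOP, assembly, polymerase I and control lists had 0 called there (2, 11, 2 and 2 at that p).

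The start of the transcript is where a TOP element would lie, so the sequence around the annotated start was read from the RefSeq promoter table of GRCm38.p6. Of the members 65 had a window, 77 windows in all, and each shows 15 bases before the start and 15 from it on. The motif searched was a C within 5 bases of the start followed by at least 4 bases that are each C or T, on the strand of the gene. It was found in 32 of 77 member windows (41.6%) and in 6027 of all 32851 windows (18.3%). By gene these were 30 of 65 members (46.2%) and 21.2% of 27025 genes, and 3 of the 8 paralogs. A match is a description of these letters and depends on which start the table gives. The windows shown are those of members the results turn on, with the run in capitals and all others in lower case.
Rplp0: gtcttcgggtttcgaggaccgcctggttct
Rplp2: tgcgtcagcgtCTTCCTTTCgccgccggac
Rps16: cccgcttctgtcgtgacgtagcactcaatg
Rps27l: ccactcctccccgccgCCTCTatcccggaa
Rpl9: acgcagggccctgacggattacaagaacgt
Rpl27a: gacttcgtgagCTCCTCCCTTTTCCCTTTC
Rpl13: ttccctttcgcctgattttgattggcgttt
Rpl35: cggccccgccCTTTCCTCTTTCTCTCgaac
Rpl37a: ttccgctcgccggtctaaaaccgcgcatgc
Rpl39: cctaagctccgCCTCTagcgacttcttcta
Rpl39l: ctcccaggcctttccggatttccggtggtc
Rpl22l1: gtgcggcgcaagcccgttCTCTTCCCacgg

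In GRCm38.p6 these windows lie as follows, each across the first base of the annotated transcript: Rplp0 at chr5:115559452-115559481 (plus strand), Rplp2 at chr7:141447636-141447665 (plus strand), Rps16 at chr7:28350674-28350703 (plus strand), Rps27l at chr9:66946071-66946100 (plus strand), Rpl9 at chr5:65391417-65391446 (minus strand), Rpl27a at chr7:109519180-109519209 (plus strand), Rpl13 at chr8:123102335-123102364 (plus strand). The others are Rpl35 at chr2:39005117-39005146 (minus strand), Rpl37a at chr1:72711245-72711274 (plus strand), Rpl39 at chrX:37085208-37085237 (minus strand), Rpl39l at chr16:10170213-10170242 (plus strand) and Rpl22l1 at chr3:28805493-28805522 (plus strand). Of the 8 members called in CR oocytes, Rpl22l1 and Rps27l, which rose, and Rpl27a, which fell, have the run in a window (for Rps27l in 1 of its 2), and Rplp0, Rpl13, Rpl37a, Rps16 and Rpl10a, which fell, do not. Of the members called higher in 2mo oocytes, Rpl35 and Rpl39 have it, Rpl37, Rpl36al, Rpl10l and Rpl39l do not, and Rpl17 was not analysed here. Rpl9 does not have it. No test was made of these matches.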

How the data were processed

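Oocyte and cumulus libraries of both sets were used as deposited. The authors trimmed reads with Fastq-mcf, aligned them to GRCm38 with HISAT2 2.0.5 and counted them with featureCounts 1.5.1 on GENCODE vM15, sharing reads that map to several places between genes. The deposited tables of the authors give, per gene and library, such fractional counts, handled here as an expected count (36.77% and 35.09% of nonzero values are not whole), and RPKM. Expected counts were summed per mouse label and cell type and rounded to whole numbers. Of 43633 gene IDs in either table, 43429 matched GENCODE vM21, which gave gene names and types. Gene lengths were those implied by the deposited counts and RPKM of libraries outside the CR group.

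Of 401 libraries 399 were analysed, and 2 of a complex whose oocyte library resembled cumulus cells were left out. Genes that had any count in 5 or more libraries were tested with edgeR 4.0.16 (quasi-likelihood, TMM, Benjamini-Hochberg over all genes tested, FDR of 5%) in R 4.3.3, with group as the term within a cell type and the mouse as a block across cell types. FDR always means this adjusted p, and an unadjusted p is from the same tool. The SE given for edgeR is the absolute log2 difference divided by the square root of its F statistic. Alternatives were DESeq2 1.42.0, limma 3.58.1 on log2(RPKM + 1) or log2(RPKM + 0.1), total counts in place of TMM, other filters, libraries as units, the 2 groups compared alone, the B1 or B2 prefix of the titles as a term, -ps genes added to their member, and each mouse left out. Counts given for limma use the pseudocount of 1. Values within each prefix were added after seeing the data, as were 3 further alternatives, namely leaving out oocytes above 10% of cumulus markers, leaving out those above 3% mitochondrial counts, and interactions without a block. Simulated data were used to test some of these procedures, and the outcomes are not given here. Tables and plots used Python 3.11.15, pandas 2.3.3, numpy 2.4.6 and matplotlib 3.10.9.

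Named in full were, in each comparison, the 3 largest increases and decreases among members called with a mean of at least 5 CPM. Rplp0, Rplp1, Rplp2, Rpsa, Rps6, Rpl3, Rpl10, Rpl22, the paralogs, Fau and Rack1 were also chosen for naming, but are not given in every comparison. Values of some genes are not reported here. Members named to complete a count, to give an order of levels or as the lowest p, and genes of the related lists, were chosen after their values were seen. The members and lists were chosen with earlier results of these data known. The related lists were 22 elongation factors and other TOP mRNAs, 30 assembly factors, 9 polymerase I genes and 12 genes of TOP control and Myc, and the markers 10 of cumulus cells, 12 of oocytes, 3 of theca and stroma and 5 of blood and vessel.

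Oocytes and cumulus cells pair by the mouse they come from. The correlation of deviations from the group means between both cell types of a mouse had a median of 0.0865 over 41 mice (lowest −0.0853, highest 0.217) and was above 0 in 36. The title prefix, which both cell types of a mouse share, was not removed from these deviations. The young labels have the same value by construction, as do the old labels. In each set the pair of libraries with the highest correlation differed by more than sampling noise (mean squared z of 3.81 and 2.18), and other pairs were not compared in this way.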

Additional observations from a re-analysis of the deposited data

Results flagged for a closer look

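The effect of calorie restriction on Rpl22l1 differed between oocytes and cumulus cells by 1.36 on the log2 scale in edgeR's test of the interaction. It was the 1 call among 84 members, while 1.9% of all genes were called. Its FDR was above the threshold with total counts (1.10, FDR = 0.181), without the block (0.168) and with any mouse but Middle3 left out (0.0807 to 0.212).

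A panel of 15 members and the summed share was examined for single mice far from the others of their group, in groups of 4 to 8 mice, and 10 of 186 values stood apart (5.38%). A mouse stood apart where its gap to the nearest other mouse, divided by the range of the group, was above Dixon's critical value at 95%. Chance gives this in about 1 in 20 groups. In middle oocytes Rplp1 stood at 190 CPM in Middle3, which has a single oocyte library, and at 128 to 136 in the other mice. In middle cumulus cells Rpl13 was 207 CPM in Middle3 and 165 to 169 elsewhere, and Rpl9 was 196 CPM in Middle1 and 206 to 207 elsewhere. In 14mo oocytes Rplp0 was 198 CPM in 14mo41 and 188 to 190 in the others.

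Among 2moNoH oocytes Rpl3 was 29.1 CPM in 2moNoH6 (others 23 to 25.8), Rpl37a 7.05 in 2moNoH13 (9.62 to 11.9), Rps23 5.37 in 2moNoH11 (8.85 to 11.1) and Rps27l 29.8 in 2moNoH10 (21.5 to 25.2). In 2mo cumulus cells the share of counts in members was 1.45% in 2mo36 (1.33% to 1.36% in the others), and Rplp0 was 395 CPM in 2mo35 (453 to 476).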

How the results depend on the processing

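Of 156 alternative settings for counts of members called, other than a mouse left out, 136 stayed on the same side of the test and within 1.5 times, as did 129 of 143 with a mouse left out. Calls in oocytes of CR against middle mice numbered 8, and became 22 with DESeq2, 0 with all libraries kept, 37 with libraries as units, 3 with limma on RPKM with a pseudocount of 1, 26 without a filter and 17 with only both groups in the fit. They were 29 without oocytes of high cumulus marker RNA and 20 without those of high mitochondrial RNA, both chosen after seeing the data. With each mouse left out in turn they ranged from 1 to 6. For comparisons with 0 calls, libraries as units gave 67 for old against young oocytes (all higher), and in cumulus cells 10 for middle and 8 for old against young, 2 for CR against middle and 14 for 2mo against 2moNoH. No filter gave 20 for old against young oocytes. For cumulus 2mo against 2moNoH DESeq2 gave 1, the title prefix as a term gave 1, and leaving out mice gave 0 to 1. Oocytes against cumulus cells of young mice ranged from 36 to 67 with a mouse left out, which leaves 1 young label, and those of 2mo mice from 76 to 79. The cause was not tested in any of these. Apart from the title prefix as a term, shares of all genes called under these settings are not given.

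Pairing by mouse was the replicate block of both interactions and of oocytes against cumulus cells. For CR by cell type, with 1 call, there were 0 calls with no replicate block, a choice made after seeing the data, 40 (37 of them lower) with the complex as replicate block over libraries, and 1, of the other direction, with total counts only. Leaving out mice gave 0 to 3. For hyperovulation by cell type the complex as replicate block gave 1 call against 0. The cause was not tested, and shares of all genes called under these settings are not given. Without the block, oocytes against cumulus cells gave 77 calls at 2mo and 67 in young mice, and no other count crossed 1.5 times.

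Medians of members stayed within their spread in 146 of 156 settings and moved in 10, such as −0.96 for CR oocytes with all libraries kept, and moved in 1 of 143 with a mouse left out. Of 93 settings for named genes 76 kept their side of the test and direction and 17 did not pass, and with a mouse left out 24 of 80 did not pass. In the second set only the 2mo mice were left out of the comparisons across cell types, and the other mice were not run.

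Depth limits Rpl10l, Rpl3l and, in cumulus cells, Rpl39l, which had few or no counts. With 2 to 4 mice a group in the first set, a difference that did not pass is not shown to be absent. Shared reads between members and their pseudogenes, in both tables, limit how far single members can be told from their copies, and adding -ps genes to their member left each count of calls within 1.5 times.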
